A study of Mus musculus with 23 samples.

Results

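The genes described here encode the precursors of the cornified envelope, the enzymes that crosslink it and the proteins that process or anchor it. They were every probe of the array annotated to a gene of the Sprr or Lce families or to Lor, Cnfn, Flg2, Hrnr, Rptn, Tgm1, Tgm3, Tgm5, Casp14, Ppl, Asprv1, Cdsn, Sbsn or Krtdap, which gave 51 probes for 41 genes among the 25697 probes of the array. Flg, Crnn, Crct1 and Evpl were also sought but were not analysed here, because the annotation used pairs them with no probe. Of the 41 genes, 40 passed the filter on dim probes and were tested beside 9732 genes in all. Lce1h did not pass, since its probe was detected on 1 of 23 arrays, a KHR array. The genes were picked by name, in the knowledge of earlier results of these data.

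The 23 arrays each hold the messenger RNA of an oral tumour, grown for 21 days in C57BL/6 mice. The labels name KHR tumours (n = 5) with intact Notch1, tumours heterozygous for Notch1 (KHR-N+/-, n = 4) or lacking it (KHR-N-/-, n = 5), and a different tumour type, KR, that was heterozygous (KR-N+/-, n = 5) or lacked Notch1 (KR-N-/-, n = 4). The codes KHR and KR, the way Notch1 was deleted and the cells it was deleted in are not given in the sources used here, no KR tumour with intact Notch1 was analysed here, and the labels do not say which tumours share an animal. Each p-value therefore rests on tumour-to-tumour spread alone, part of which may be technical.

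When a keratinocyte of a stratified epithelium reaches the upper layers, it replaces its plasma membrane with a sheet of crosslinked protein, the cornified envelope. Scaffold proteins of the desmosome such as periplakin are laid down first, then loricrin, the small proline-rich (SPRR) proteins and the late cornified envelope (LCE) proteins are bound to them by transglutaminases. Most of the precursor genes lie side by side in the epidermal differentiation complex, on chromosome 3 in the mouse. Notch1 is a receptor that in stratified epithelium is known to act in the step from basal to suprabasal cells.

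Mean array intensity ran from 142.4 to 366.4 and 10353 to 12654 probes were detected per array. Values below are background-corrected, quantile-normalized log2 intensities, so each difference is relative to the other genes of the array, and differences are given with the moderated standard error (SE) and a Benjamini-Hochberg adjusted p from limma over all 9732 genes, with 0.05 as the threshold. Notch1 itself followed the labels by group mean. It averaged 8.27 ± 0.38 (SD) over the KHR tumours, 6.80 ± 0.85 over KHR-N+/- and 5.67 ± 0.16 over KHR-N-/-. KR-N+/- tumours averaged 7.72 ± 0.28 and KR-N-/- tumours 6.02 ± 0.38. The array labelled KHR-N+/- replicate 3 read 5.68, as low as KHR-N-/- tumours, which spanned 5.40 to 5.80. KHR replicate 5 stood apart from its group on the envelope genes. Of the genes listed as cell type markers, 10 of 11 pan-epithelial, 12 of 13 suprabasal and stress keratin, 17 of 19 skeletal muscle and 15 of 18 fibroblast and matrix genes passed the detection filter, which does not tell an epithelial tumour from the tissue around it.

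Across the 5 groups the envelope genes were lowest in KR-N-/- tumours. Of the 40 genes, 29 had their lowest group mean there, against 4 in KHR, 3 in KHR-N+/-, 3 in KHR-N-/- and 1 in KR-N+/-. The share of all genes with their lowest mean in each group was not counted. The median over the 40 genes of the difference from each gene's own mean was below 0 in all 4 KR-N-/- tumours, from -0.59 to -0.26 on the log2 scale. It ran from -0.20 to 0.32 in KR-N+/-, from -0.32 to 0.22 in KHR-N-/- and from -0.25 to 0.62 in KHR-N+/-. In KHR 4 tumours lay between 0.29 and 0.62, and replicate 5 lay at -0.59, as low as the lowest KR-N-/- tumour, with 4 of 40 genes above their own mean. On KHR replicate 5 the summed intensity of the fibroblast and matrix markers was 4624, against 1975 to 2678 on the other KHR arrays, and that of the endothelial markers 819.8, against 259.3 to 461.1. The sum of the basal keratinocyte markers was 36768, against 27360 to 30352, and that of the cornified lipid envelope genes 8968, against 11687 to 16970. What part any of these had in its envelope levels was not tested.

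**Figure D1:**
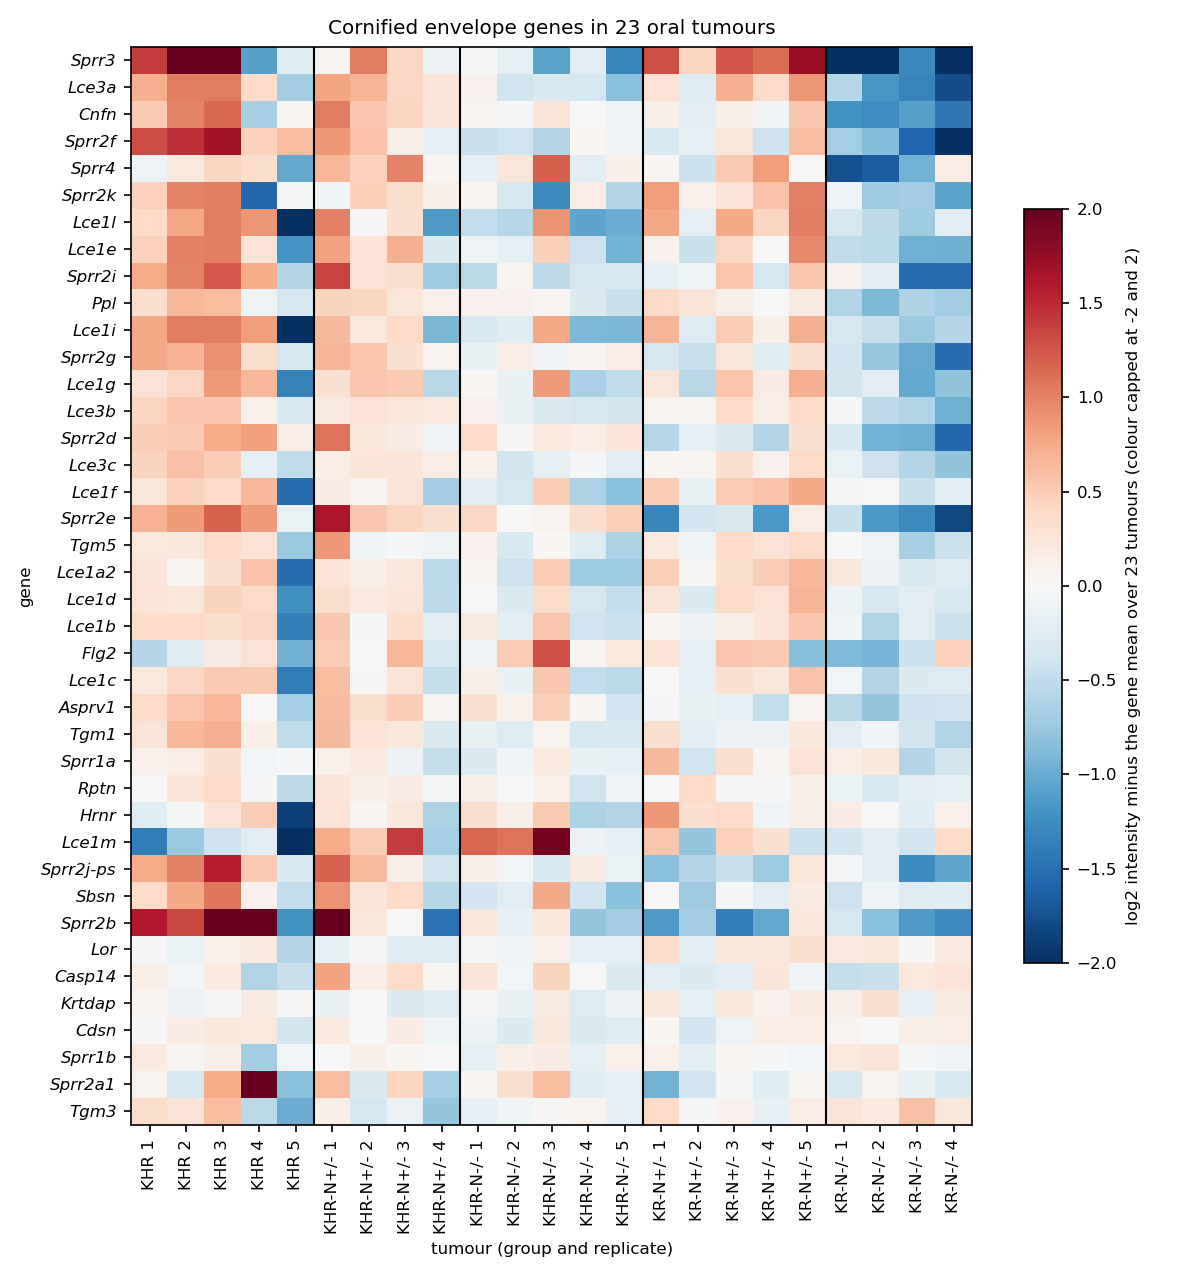
Level of each of 40 cornified envelope genes (vertical axis, ordered by the difference between KR-N-/- and KR-N+/-) in each of 23 tumours (horizontal axis, black lines between groups). Colour is the log2 intensity minus the gene's mean over the 23 tumours, capped at -2 and 2, and the 4 KR-N-/- columns and KHR replicate 5 are mostly blue.

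**Figure D2:**
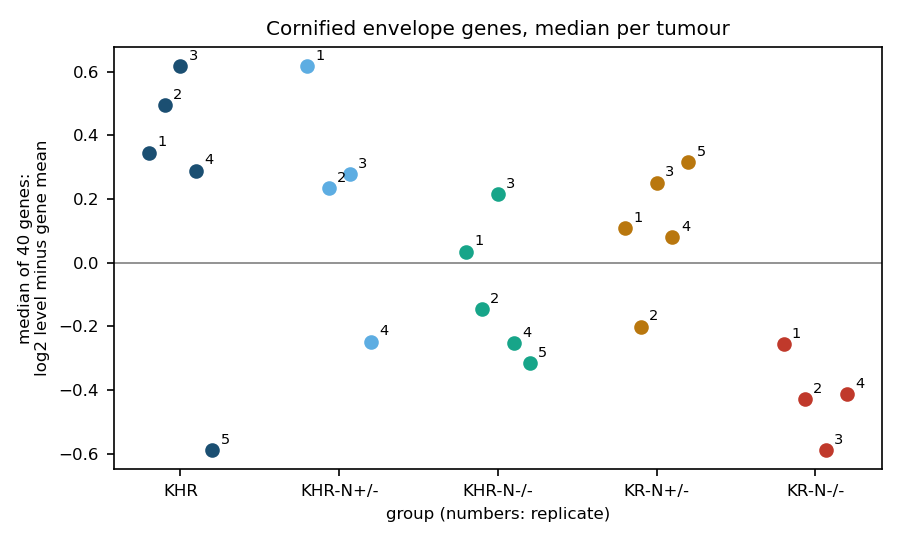
Median over 40 cornified envelope genes of the log2 level minus the gene's mean (vertical axis) for each tumour, by group (horizontal axis), with the replicate number beside each point. KHR replicate 5 lies at -0.59 while the other KHR tumours lie between 0.29 and 0.62, and all 4 KR-N-/- tumours lie below 0.

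The sharpest difference within a tumour type was between KR-N-/- and KR-N+/- tumours, which asks what the loss of the remaining Notch1 copy goes with in KR tumours. There 11 of 40 envelope genes (27.5%) were lower in KR-N-/- and 0 were higher, while among all genes tested 6.63% passed lower and 9.62% higher, 16.2% together. The groups did not overlap, with KR-N-/- lower, in 12 of 40 genes (30%), and in 7.67% of all genes, with 10.8% of all genes separate and higher. At an unadjusted p under 0.05 there were 16 (40%), against 30.7% of all genes. The median difference over the 40 genes was -0.51 on the log2 scale, against 0.04 over all genes, and 34 of the 40 were below 0 (85%, against 44.5% of all genes). In whole tumours, fewer keratinocytes in the upper layers and less of each transcript per cell cannot be told apart.

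Sprr3, a small proline-rich protein gene strongly expressed in the lining of mouth and oesophagus, had the largest difference of the 40 genes in KR tumours. Its log2 intensity was 11.72, 10.86, 11.68, 11.55 and 12.15 in the 5 KR-N+/- tumours and 8.41, 7.61, 9.15 and 7.97 in the 4 KR-N-/- tumours. Every KR-N-/- tumour was below every KR-N+/- tumour, by at least the gap from 9.15 to 10.86. Sprr3 was 9.90-fold lower in KR-N-/- (log2 difference -3.31, SE 0.50, adjusted p = 0.000455). Sprr4, a less studied relative of the same family, read 7.49, 7.03, 7.97, 8.29 and 7.44 in KR-N+/- and 5.69, 5.79, 6.50 and 7.60 in KR-N-/-. The highest KR-N-/- tumour lay within the KR-N+/- range for this gene, which fell by 1.25 (SE 0.36, adjusted p = 0.0208) but did not pass without KR-N+/- replicate 4 or KR-N-/- replicate 1 or 2. The Sprr1 genes, whose proteins are induced in stressed and wounded epithelium, did not pass, with differences of -0.34 for Sprr1a and 0.12 for Sprr1b (SE 0.18 and 0.14, adjusted p = 0.222 and 0.611).

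Sprr2 genes encode short crosslinking proteins of the envelope, and 4 of 9 measured passed, all lower in KR-N-/-. Sprr2f was 10.23, 10.38, 10.79, 10.14 and 11.18 in KR-N+/- tumours and 9.88, 9.69, 8.98 and 8.36 in KR-N-/- tumours. The groups were separate, with a fall of 1.32 (SE 0.29, adjusted p = 0.00482). Sprr2g was 11.05, 10.92, 11.60, 11.13 and 11.72 against 11.00, 10.62, 10.36 and 9.85, so that KR-N-/- replicate 1 lay within the KR-N+/- range. It fell by 0.83 (SE 0.23, adjusted p = 0.0165). Sprr2d was 12.35, 12.73, 12.63, 12.33 and 13.22 against 12.62, 11.97, 11.94 and 11.34, again with KR-N-/- replicate 1 among the KR-N+/- tumours. Its fall of 0.68 (SE 0.23, adjusted p = 0.0421) did not pass without KR-N+/- replicate 2, 3 or 5 or KR-N-/- replicate 2, 3 or 4. Sprr2k fell by 1.19 (SE 0.38, adjusted p = 0.0339), with separate groups, and did not pass without KR-N+/- replicate 1, 4 or 5 or KR-N-/- replicate 2, 3 or 4. Sprr2e, Sprr2i, Sprr2a1, Sprr2b and the pseudogene Sprr2j-ps did not pass, with differences from -0.90 for Sprr2i to 0.13 for Sprr2a1. Sprr2 genes resemble each other closely, and how far a probe reads its neighbours was not tested.

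All 3 Lce3 genes passed and were lower in KR-N-/-. Lce3 proteins are minor envelope components that in human skin are induced when the barrier is damaged. Lce3a was 10.89, 10.33, 11.32, 10.99 and 11.49 in KR-N+/- and 10.03, 9.44, 9.26 and 8.83 in KR-N-/-. Its groups were separate, and it fell by 1.62 (SE 0.29, adjusted p = 0.00125), or 3.07-fold. Lce3b, at 13.40, 13.40, 13.73, 13.49 and 13.73 against 13.30, 12.82, 12.74 and 12.39, fell by 0.74 (SE 0.17, adjusted p = 0.00521), and both its other probes fell too, 1 of them by 1.75 (adjusted p = 0.00467 and 0.00279 in the fit of all probes). Lce3c, at 13.56, 13.56, 13.84, 13.58 and 13.90 against 13.37, 13.10, 12.92 and 12.69, fell by 0.67 (SE 0.18, adjusted p = 0.0139). Both were separate between the groups, although these bright probes lie close to the upper end of the normalized scale, 14.6. Of the 10 Lce1 genes measured, whose proteins form the main LCE group of skin, 0 passed. All 10 were below 0, from -1.01 for Lce1l to -0.18 for Lce1m, and Lce1e came nearest to the threshold (-0.95, SE 0.35, adjusted p = 0.0687). A second Lce1e probe of similar brightness gave -0.75 (adjusted p = 0.224 in the fit of all probes). Lce1e, Lce1i and Lce1l were separate between the groups without passing.

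Cornifelin and periplakin fell with them. Cnfn, which encodes cornifelin, an envelope component that binds other precursors, was 12.05, 11.70, 12.06, 11.86 and 12.46 in KR-N+/- and 10.72, 10.69, 10.83 and 10.49 in KR-N-/-. The 4 KR-N-/- values lay within a narrow band below all others, and Cnfn fell by 1.34 (SE 0.25, adjusted p = 0.00141), or 2.54-fold. Ppl, the plakin that ties the envelope to desmosomes and intermediate filaments, was 10.96, 10.81, 10.68, 10.55 and 10.74 against 9.96, 9.66, 9.95 and 9.86. It too was separate and fell by 0.89 (SE 0.17, adjusted p = 0.00171), while a dimmer second probe, detected on 1 of 4 KR-N-/- arrays, gave -0.32 (adjusted p = 0.31).

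**Figure D3:**
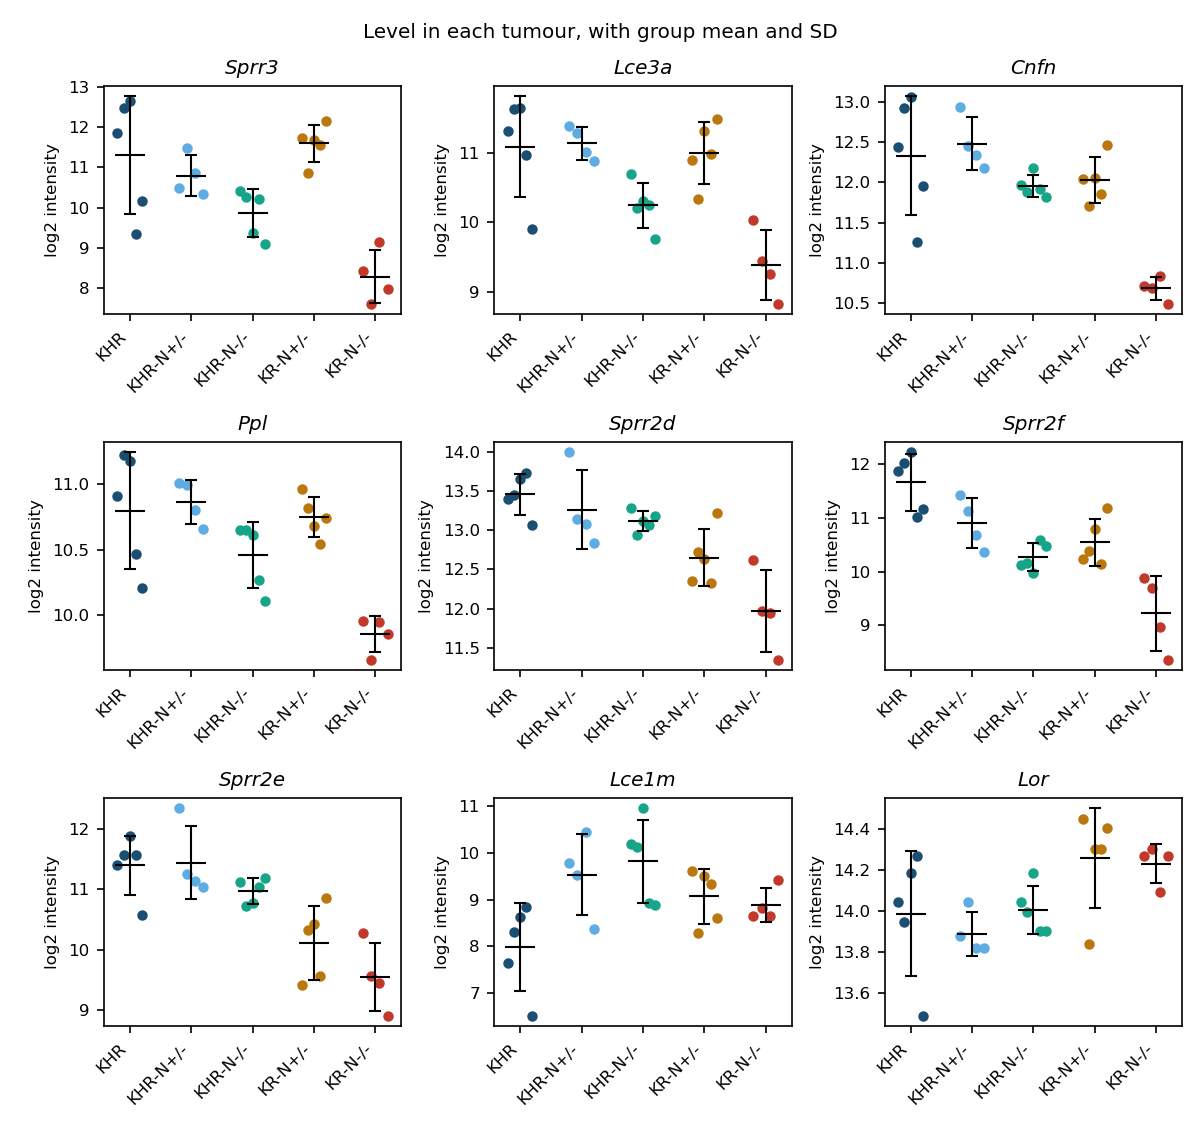
Normalized log2 intensity (vertical axes, each with its own range) of 9 cornified envelope genes in each tumour, by group (horizontal axes). Points are tumours, and bars are the group mean and SD. Sprr3, Lce3a, Cnfn, Ppl and Sprr2f in KR-N-/- lie below every KR-N+/- tumour, while Lor in KR-N-/- lies within the KR-N+/- range.

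Other members, the major precursors and the crosslinking enzymes among them, did not pass in KR tumours. Lor encodes loricrin, the most abundant envelope protein of skin, and its tumour values were chosen for printing after they were seen. They were 14.45, 13.84, 14.30, 14.30 and 14.40 in KR-N+/- and 14.27, 14.30, 14.09 and 14.27 in KR-N-/-. The groups overlapped fully, with a difference of -0.03 (SE 0.13, adjusted p = 0.918). The probe lies near the top of the scale, and whether a difference is compressed there was not tested. Among the transglutaminases, Tgm1, the membrane-bound enzyme that crosslinks the envelope in place, differed by -0.34 (SE 0.20, adjusted p = 0.261), Tgm5 by -0.54 (SE 0.22, adjusted p = 0.0943) and Tgm3 by 0.23 (SE 0.23, adjusted p = 0.542). The S100-fused genes Flg2, Hrnr and Rptn, whose long repeat proteins join the envelope and the keratin matrix, ran from -0.50 to -0.31, and Rptn was separate between the groups without passing (adjusted p = 0.143). Flg2 was dim, detected on 19 of 23 arrays and on 2 of 4 KR-N-/- arrays. The proteases Asprv1 and Casp14, both tied to filaggrin processing, differed by -0.38 and 0.00 (adjusted p = 0.226 and 0.994). Cdsn, the corneodesmosome adhesion gene, Sbsn, which encodes suprabasin, and Krtdap, a secreted differentiation product, differed by 0.11, -0.09 and 0.00 (adjusted p = 0.611, 0.874 and 0.986), but the dimmer second probe of Cdsn gave -0.83 (adjusted p = 0.081).

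Promoters are shown for the 4 genes on which the KR comparison turns, from different families, and for Lor, which did not pass. They are the 250 bases before the annotated start of each gene, from RefSeq on GRCm38.p6, read on the gene's strand from 5′ to 3′. Sprr3 lies at chr3:92458721-92458970 (minus strand), Lce3a at chr3:92926231-92926480 (minus), Cnfn at chr7:25369725-25369974 (minus), Sprr2f at chr3:92364937-92365186 (plus) and Lor at chr3:92083143-92083392 (minus). Capitals mark matches on either strand to TGANTCA, the letters bound by AP-1 factors, and to TGGGAA, the core letters bound by RBPJ, the DNA-binding partner of Notch.
Sprr3: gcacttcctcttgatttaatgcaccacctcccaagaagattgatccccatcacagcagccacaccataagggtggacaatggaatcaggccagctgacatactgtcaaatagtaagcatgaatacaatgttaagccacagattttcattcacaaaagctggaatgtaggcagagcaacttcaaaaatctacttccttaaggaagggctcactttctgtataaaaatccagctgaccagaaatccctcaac
Lce3a: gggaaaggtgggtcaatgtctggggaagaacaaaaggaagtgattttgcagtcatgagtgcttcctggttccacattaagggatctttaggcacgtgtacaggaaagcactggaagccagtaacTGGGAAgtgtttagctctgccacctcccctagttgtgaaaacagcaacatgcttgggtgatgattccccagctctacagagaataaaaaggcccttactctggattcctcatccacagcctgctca
Cnfn: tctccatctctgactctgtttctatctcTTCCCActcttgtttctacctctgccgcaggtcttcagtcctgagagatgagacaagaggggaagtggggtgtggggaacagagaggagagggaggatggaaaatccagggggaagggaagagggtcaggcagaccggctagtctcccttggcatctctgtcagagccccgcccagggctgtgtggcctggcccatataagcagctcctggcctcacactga
Sprr2f: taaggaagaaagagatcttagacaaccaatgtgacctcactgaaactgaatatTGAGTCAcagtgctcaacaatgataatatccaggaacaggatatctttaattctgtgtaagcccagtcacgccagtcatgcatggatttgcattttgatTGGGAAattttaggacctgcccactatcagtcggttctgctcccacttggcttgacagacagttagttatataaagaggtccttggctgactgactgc
Lor: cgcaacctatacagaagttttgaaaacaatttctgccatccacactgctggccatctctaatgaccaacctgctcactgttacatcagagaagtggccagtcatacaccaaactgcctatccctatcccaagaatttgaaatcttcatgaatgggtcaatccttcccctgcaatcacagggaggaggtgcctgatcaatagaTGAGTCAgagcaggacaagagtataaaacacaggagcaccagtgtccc
The AP-1 letters were in the Sprr2f and Lor windows (1 match each) and the RBPJ letters in those of Lce3a, Cnfn and Sprr2f (1 match each, on the opposite strand in Cnfn). The Sprr3 window held neither. A promoter was given for 36 of the 40 tested genes, all but Lce1f, Ppl, Sprr2g and Sprr2j-ps. Of these, 13 (36.1%) held the AP-1 letters, against 7.82% of 27025 genes with a promoter, and 14 (38.9%) held the RBPJ letters, against 24.1%. Among the 9 with a promoter that passed lower in KR-N-/-, 3 held the AP-1 letters and 5 the RBPJ letters, and among the other 27 the counts were 10 and 9. A match describes the letters of this window and not a bound site, and neighbouring genes of a family share much of their promoter sequence.

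Along chromosome 3 the genes that fell were spread over the complex rather than in 1 block. Of 30 tested members there, 9 passed lower in KR-N-/-, and of 10 on other chromosomes 2 did, Cnfn and Ppl. Sprr3 lies between Sprr1b and Sprr1a, which did not pass, and Sprr4 between Sprr1a and the first Lce1 genes. Lce3a, Lce3b and Lce3c lie together, beyond the run of Lce1 genes and before Lce1m.

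**Figure D4:**
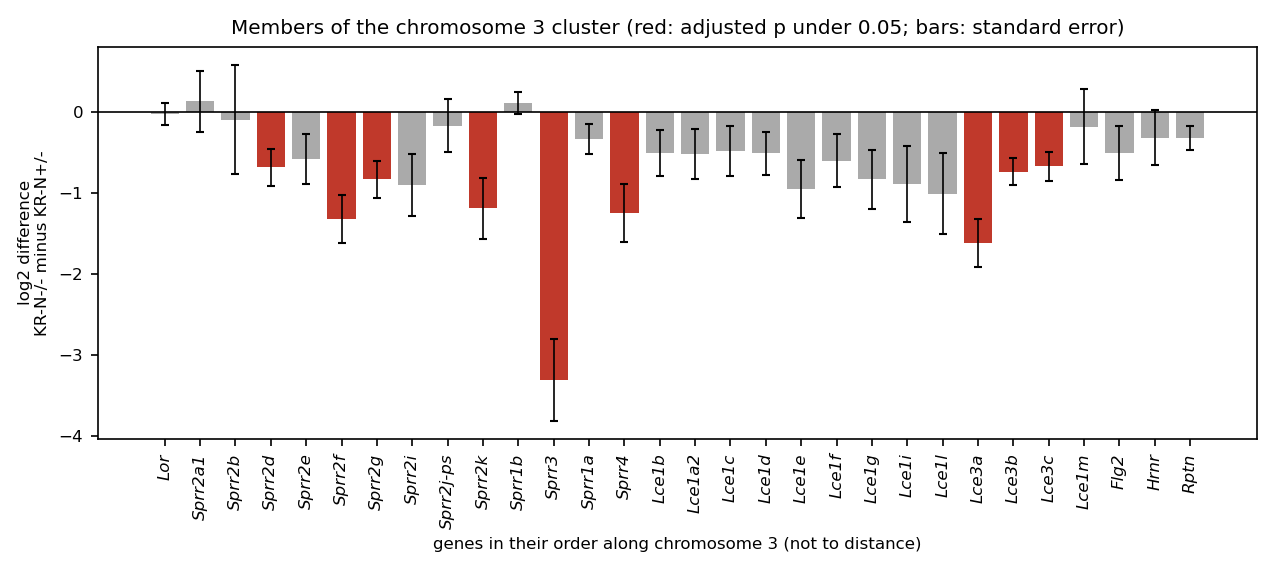
Log2 difference between KR-N-/- and KR-N+/- tumours (vertical axis, bars from 0, with the moderated standard error) for the 30 tested members on chromosome 3, in their order along the chromosome without distances (horizontal axis). Red bars passed at an adjusted p under 0.05. Sprr3 at -3.31 stands beside Sprr1b at 0.12 and Sprr1a at -0.34.

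Other genes that act in the same layers were read from lists chosen by role. Of 18 measured genes of the epidermal differentiation complex and envelope partners outside the members, 7 fell and 1 rose in KR-N-/-, with a list median of -0.53. The calgranulin gene S100a8 differed by -1.09, Anxa1, which encodes a calcium-dependent membrane-binding protein of the envelope, by -1.62, S100a7a by -1.87 and Pglyrp4, a peptidoglycan recognition protein gene, by -1.91 (adjusted p = 0.000711, 0.000711, 0.00118 and 0.00205). Of 14 envelope proteases and inhibitors 5 fell and 0 rose, among them the kallikreins Klk6 (-1.54), Klk7 (-0.92) and Klk10 (-1.63) and the channel-activating protease Prss8 (-1.04). Of 17 genes of the lipid envelope 3 fell and 0 rose, led by Fa2h, the fatty acid 2-hydroxylase (-2.67, SE 0.38, adjusted p = 0.000205). Krt13 and Krt4, the keratin pair of non-cornified oral lining, differed by -1.48 and -2.16 (adjusted p = 0.00398 and 0.00966), and the other 10 suprabasal and stress keratins did not pass. Among 18 transcription factors of terminal differentiation, Elf3 (-0.78) and Grhl1 (-0.68) fell, Klf5 (0.54) rose, and 15 did not pass.

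Markers of other cells moved with the envelope genes in the same comparison. Of 11 basal keratinocyte genes 8 rose in KR-N-/- and 0 fell, led by the hemidesmosome and basement membrane genes Lamb3 (1.29), Itgb4 (1.15) and Col17a1 (0.88), and their summed intensity ran from 25679 to 35802 in KR-N+/- and from 36508 to 43128 in KR-N-/-. Of 15 fibroblast and matrix genes 10 rose and 0 fell, with summed intensities of 2450 to 3513 and 4648 to 6117. Neither sum overlapped between the groups. Of 9 endothelial genes 2 rose, of 9 macrophage genes 0 passed, of 17 muscle genes 1 rose and 2 fell, of 10 pan-epithelial genes 2 fell, and of 8 hair follicle keratins 1 fell. With the mean level of the basal list as a covariate 0 of 40 envelope genes passed, as did 0 of all 9732, and the median of the 40 became 0.26, with Sprr3 at -2.43 (adjusted p = 0.503). With the fibroblast list, chosen as a covariate after seeing the data, 0 of 40 and 17 of all genes passed, the median was 0.37 and Sprr3 was at -2.28 (adjusted p = 0.165). The basal mean ran from 8.49 to 8.85 in KR-N+/- and from 9.30 to 9.65 in KR-N-/-. The fibroblast mean ran from 6.39 to 6.79 and from 7.27 to 7.54. Since each covariate was separate between the groups, neither fit can part the list from the group. No conclusion is drawn from the calls lost in them. When arrays were scaled by their medians in place of quantiles, 0 of 40 and 3 of all genes passed, with the median of the 40 at -0.65 and Sprr3 at -3.42 (adjusted p = 0.0744). Without KR-N-/- replicate 4 the count was 7 (17.5%, against 11.5% of all genes in that fit), and Lce3c, Sprr2d, Sprr2g and Sprr2k no longer passed.

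In KHR tumours the comparison of no Notch1 with intact Notch1 gave 2 of 40 envelope genes (5%), against 7.34% of all genes, a share near the background. They were 1 higher and 1 lower (2.5% each, against 4.57% and 2.76% of all genes), and the same 2 genes had separate groups, as did 3.16% of all genes higher and 1.98% lower. At an unadjusted p under 0.05 there were 11 (27.5%), against 20.8% of all genes. Differences were below 0 for 33 of the 40 (82.5%, against 48.2% of all genes). The median over the 40 was -0.29, against 0.01 over all genes. Sprr2f was 11.87, 12.02, 12.22, 11.01 and 11.17 in KHR and 10.12, 10.16, 9.97, 10.59 and 10.48 in KHR-N-/-. The groups were separate and Sprr2f fell by 1.39 (SE 0.28, adjusted p = 0.00264), or 2.63-fold. It lay between them in KHR-N+/-, at 11.42, 11.13, 10.69 and 10.37, overlapping both. Lce1m, a member of the Lce1 family that lies apart from the others on chromosome 3, went the other way. It was 7.65, 8.31, 8.64, 8.84 and 6.51 in KHR, 9.80, 9.54, 10.45 and 8.37 in KHR-N+/- and 10.20, 10.14, 10.96, 8.93 and 8.89 in KHR-N-/-. Every KHR-N-/- tumour was above every KHR tumour, and Lce1m rose by 1.83 (SE 0.43, adjusted p = 0.00953), or 3.56-fold, while the 9 other Lce1 genes were below 0 and did not pass. Ivl, the involucrin gene, an envelope precursor outside the member list, rose too, by 1.82 (SE 0.32, adjusted p = 0.000897).

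Sprr3, Lce3a, Cnfn and Ppl, which fell in KR-N-/-, did not pass between KHR-N-/- and KHR. Sprr3 was 11.84, 12.46, 12.66, 9.35 and 10.17 in KHR, 10.50, 11.48, 10.85 and 10.33 in KHR-N+/- and 10.41, 10.25, 9.37, 10.22 and 9.10 in KHR-N-/-. The KHR tumours split into 3 high and 2 low, and the low ones, replicates 4 and 5, lay among the KHR-N-/- tumours, with a difference of -1.43 (SE 0.47, adjusted p = 0.0684). Lce3a was 11.32, 11.63, 11.64, 10.96 and 9.90 in KHR, 11.39, 11.28, 11.01 and 10.88 in KHR-N+/- and 10.69, 10.21, 10.30, 10.25 and 9.76 in KHR-N-/-. Here 4 KHR tumours were above all KHR-N-/- tumours and replicate 5 was among them (-0.85, SE 0.28, adjusted p = 0.0623). Cnfn was 12.44, 12.92, 13.07, 11.26 and 11.96 in KHR, 12.94, 12.45, 12.35 and 12.18 in KHR-N+/- and 11.97, 11.89, 12.17, 11.92 and 11.82 in KHR-N-/-. Ppl was 10.91, 11.22, 11.18, 10.47 and 10.21 in KHR, 11.00, 10.99, 10.80 and 10.66 in KHR-N+/- and 10.65, 10.65, 10.61, 10.27 and 10.11 in KHR-N-/-. For both genes KHR replicates 4 and 5 lay within or below the KHR-N-/- range, and the difference did not pass (adjusted p = 0.391 and 0.232).

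Leaving out KHR replicate 5 changed this count from 2 to 16 (40%, against 13.7% of all genes in the same fit), of which 15 were lower in KHR-N-/- (37.5%, against 5.79% of all genes). The 15 were Sprr2b, Sprr2f, Sprr2g, Sprr2i, Sprr2j-ps, Sprr3, Lce1e, Lce1f, Lce1i, Lce1l, Lce3a, Lce3b, Lce3c, Ppl and Tgm1, and Lce1m was higher. Without that tumour Sprr3 differed by -1.71 (adjusted p = 0.0194), Lce3a by -1.15 (adjusted p = 0.00166) and Sprr2b by -2.44 (adjusted p = 0.0032). KHR replicate 5 stood apart because these same genes were low in it, so a rise in the count without it was partly built in. The count and p-values of that fit are therefore no independent support for a fall. Leaving out KHR replicate 4 gave 6 (15%, against 12% of all genes in that fit), with Cnfn, Lce3b, Sprr2k and Sprr3 added, and array weights gave 18 (45%, against 22.9%). Beside these values, 13 of 15 fibroblast and matrix genes, 12 of 17 muscle genes, 4 of 9 macrophage genes and 3 of 11 basal keratinocyte genes rose in KHR-N-/- against KHR, while 4 of 8 hair follicle keratins and 2 of 10 pan-epithelial genes, the splicing factors Esrp1 (-0.83) and Esrp2 (-0.39), fell. The count was 0 with the muscle list as a covariate (1.8% of all genes), 1 with the basal list (0.699%) and 7, all higher, with the fibroblast list (0.956%). Sprr2f did not pass with any of the 3 lists, at -0.64 with muscle, -1.34 with basal and -0.58 with fibroblast genes (adjusted p = 0.37, 0.108 and 0.65). Lce1m was at 1.25, 2.65 and 3.46 in the same order (adjusted p = 0.338, 0.0351 and 0.0193). Summed muscle intensities ran from 3204 to 5577 in KHR and from 7096 to 9123 in KHR-N-/-. The mean log2 levels of the muscle list (6.62 to 7.17 and 7.38 to 7.69) were separate between these groups. So were those of the fibroblast list (6.12 to 7.20 and 7.27 to 7.98). Those of the basal list barely overlapped (8.53 to 8.97 and 8.96 to 9.40). The muscle and fibroblast fits therefore cannot part the list from the group, and the basal fit hardly can.

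Between KHR-N+/- and KHR tumours, where 1 copy of Notch1 was lost, 0 of 40 envelope genes passed in limma, against 1.25% of all genes (0.822% higher and 0.432% lower). The groups overlapped for all 40, while 1.93% of all genes were separate and higher and 1.46% separate and lower. At an unadjusted p under 0.05 there were 3 envelope genes (Casp14, Lce1m and Sprr2f) and 11.1% of all genes. The median over the 40 was 0.03. Between KHR-N-/- and KHR-N+/-, 0 of 40 passed in limma, against 0.103% of all genes (0.0719% higher and 0.0308% lower), and 6 (Cnfn, Lce3a, Lce3b, Ppl, Sprr2f and Tgm1) had an unadjusted p under 0.05, against 8.14% of all genes. Differences were below 0 for 34 of the 40 (85%, against 47.7% of all genes), with a median of -0.30. Notch1 itself did not pass in this comparison (-1.13, SE 0.27, limma adjusted p = 0.122). KHR-N+/- replicate 3 read Notch1 as low as the KHR-N-/- tumours. The groups were separate for Cnfn, Lce3a, Lce3b, Lce3c and Ppl, 5 genes that were all lower in KHR-N-/- (12.5%), against 2% of all genes lower and 2.91% higher. Lce3b was 13.52, 13.63, 13.58 and 13.54 in KHR-N+/- and 13.43, 13.19, 13.05, 13.00 and 12.97 in KHR-N-/-. Lce3c was 13.66, 13.78, 13.78 and 13.66 against 13.61, 13.13, 13.33, 13.46 and 13.28. In KHR tumours with intact Notch1, Lce3b was 13.78, 13.88, 13.88, 13.45 and 13.03 and Lce3c 13.95, 14.09, 14.00, 13.32 and 12.99, both overlapping the other groups. The replicate numbers of KHR-N-/- and KHR-N+/- deviated together, and with them as a block the count was again 0, against 0.0719% of all genes.

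Set side by side, the contrast of N-/- with N+/- was below 0 in both tumour types for 31 of 40 genes (77.5%, against 30.5% of all genes). It was larger in size in KR than in KHR for 31 of 40 (77.5%), near the 71.9% of all genes for which it was. For Sprr3 it was -3.31 in KR (SE 0.50) and -0.92 in KHR (SE 0.50, adjusted p = 0.696). For Cnfn it was -1.34 and -0.53 (SE 0.25 for both). For Notch1 itself it was -1.70 in KR (SE 0.27, limma adjusted p = 0.000711) and -1.13 in KHR (SE 0.27, limma adjusted p = 0.122). The difference between the contrasts was tested as an interaction, in which 0 of 40 envelope genes and 0% of all genes passed. At an unadjusted p under 0.05 it held 2 envelope genes, Sprr3 and Cnfn, and 8.15% of all genes. For Sprr3 the interaction was 2.39 (SE 0.71, 95% interval 0.92 to 3.86, limma adjusted p = 0.361) and for Cnfn 0.82 (SE 0.35, 95% interval 0.09 to 1.54, limma adjusted p = 0.54). A difference between the tumour types in the response to Notch1 was therefore not shown for any member, nor was a like response.

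**Figure D5:**
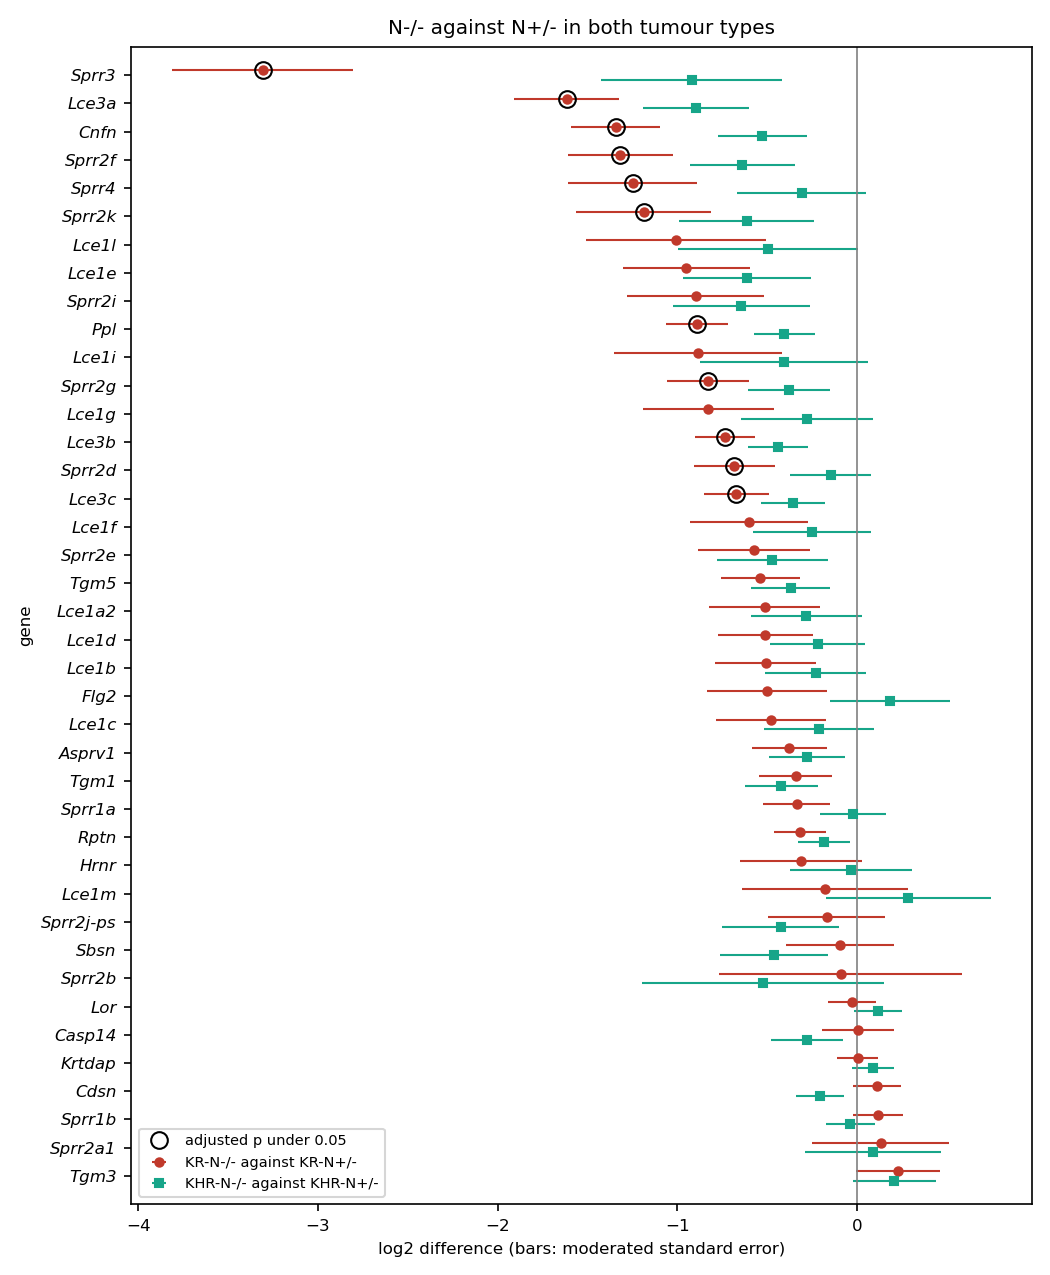
Log2 difference between N-/- and N+/- tumours (horizontal axis, bars are moderated standard errors) for each of 40 cornified envelope genes (vertical axis), in KR tumours (red circles) and KHR tumours (green squares). Black rings mark an adjusted p under 0.05. The 11 ringed points are all KR values below 0, led by Sprr3 at -3.31 against -0.92 in KHR.

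The 2 tumour types were also compared at the same labelled Notch1 genotype. Notch1 RNA itself was lower in KHR-N+/- than in KR-N+/- (-0.92, SE 0.27, limma adjusted p = 0.0465). It did not pass between KHR-N-/- and KR-N-/- (-0.35, SE 0.27, limma adjusted p = 0.433). Without Notch1, 9 of 40 envelope genes (22.5%) were higher in KHR-N-/- than in KR-N-/- tumours and 0 lower, against 6.31% of all genes higher and 6.5% lower, 12.8% together. At an unadjusted p under 0.05 there were 11 (27.5%), against 28% of all genes. These counts rest on the brightest probe of each gene, which for Lce3b differed by 0.32 and did not pass. Its other probes differed by 1.39 and 0.44 (adjusted p = 0.0139 and 0.202 in the fit of all probes). Sprr2e was 11.13, 10.73, 10.78, 11.05 and 11.19 in KHR-N-/- and 10.27, 9.56, 9.44 and 8.90 in KR-N-/-. The groups were separate, with a difference of 1.43 (SE 0.31, adjusted p = 0.00475), or 2.70-fold. Sprr2d was 13.28, 12.94, 13.12, 13.07 and 13.18 in KHR-N-/-, above all KR-N-/- tumours, with a difference of 1.15 (SE 0.23, adjusted p = 0.00259). Cnfn was higher by 1.27 (SE 0.25, adjusted p = 0.00242), Sprr2f by 1.04 (SE 0.29, adjusted p = 0.023) and Ppl by 0.60 (SE 0.17, adjusted p = 0.0228), all 3 with separate groups. Sprr2g was 11.23, 11.53, 11.31, 11.43 and 11.53 in KHR-N-/- (0.95 higher, SE 0.23, adjusted p = 0.00914), also separate. Sprr4 was 7.29, 7.69, 8.65, 7.22 and 7.58, of which 3 tumours lay within the KR-N-/- range (1.29 higher, adjusted p = 0.0211). It did not pass without KHR-N-/- replicate 3 or KR-N-/- replicate 1 or 2, nor Sprr2f without KHR-N-/- replicate 4 or KR-N-/- replicate 3 or 4, Sprr2g without KR-N-/- replicate 4, and Ppl without any of KHR-N-/- replicates 1, 2 and 3 and KR-N-/- replicates 2 and 4.

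Sprr3 differed by 1.58 (SE 0.50, adjusted p = 0.0396), with the highest KR-N-/- tumour, at 9.15, above the lowest KHR-N-/- tumour, at 9.10. It passed in 7 of 14 alternatives. It did not pass without background correction, with an offset of 50, with median scaling, without the detection filter, with trend and robust fitting or with the muscle or basal list as a covariate, nor without any of KHR-N-/- replicates 1, 2 and 4 and KR-N-/- replicates 1, 2 and 4. Asprv1, the skin aspartic protease gene, differed by 0.65 (SE 0.21, adjusted p = 0.0435), with separate groups, and did not pass in 11 of 23 fits without 1 tumour. The groups were separate for 7 of the 40 genes with KHR-N-/- higher (17.5%, against 9.19% of all genes) and for Tgm3 with KHR-N-/- lower (2.5%, against 10.9% of all genes), where the difference of -0.38 did not pass (SE 0.23, adjusted p = 0.296). The KR-N-/- tumours are also the lower arm of the comparison within KR, so these results share those 4 arrays. Without KR-N-/- replicate 2 or without replicate 4 the count was 5 (12.5%, against 7.05% and 7.15% of all genes in those fits). It was also 5 with the muscle list as a covariate (5.69% of all genes) and with the basal list (8.75%), where 1 of the 5 was lower. Among the marker lists 3 of 9 macrophage genes and 2 of 10 pan-epithelial genes, the tight junction genes Cldn4 (0.68) and Cldn1 (0.80), were higher in KHR-N-/-, and 2 of 17 muscle genes, 1 of 9 endothelial genes and 1 of 11 basal genes lower.

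With 1 copy of Notch1, Sprr2e was the 1 envelope gene of 40 (2.5%) that passed, against 5.57% of all genes (3.2% higher and 2.37% lower), and also the 1 with separate groups, against 4.79% of all genes higher and 4.61% lower. At an unadjusted p under 0.05 there were 8 (20%), against 19.9% of all genes. It was 12.35, 11.25, 11.14 and 11.03 in KHR-N+/- and 9.40, 10.33, 10.42, 9.56 and 10.86 in KR-N+/-. The groups were separate, and Sprr2e was 2.51-fold higher in KHR-N+/- (log2 1.33, SE 0.31, adjusted p = 0.0118). Without KHR-N+/- replicate 1, the highest, 0 of 40 envelope genes passed, against 4.16% of all genes in that fit. In KHR tumours with intact Notch1 it was 11.41, 11.57, 11.89, 11.57 and 10.57, overlapping both other KHR-type groups. Sprr2d was 14.00, 13.14, 13.08 and 12.84 in KHR-N+/- and 13.40, 13.45, 13.66, 13.73 and 13.07 in KHR, and its difference between KHR-N+/- and KR-N+/- was 0.61 (SE 0.23, adjusted p = 0.117). Sprr2g was 12.06, 11.94, 11.70 and 11.45 in KHR-N+/- and 12.13, 12.07, 12.29, 11.73 and 11.04 in KHR (0.50 above KR-N+/-, adjusted p = 0.216), and Sprr4 was 8.11, 7.92, 8.43 and 7.51 in KHR-N+/- and 7.35, 7.66, 7.89, 7.81 and 6.43 in KHR. Muscle genes moved with this comparison, 13 of 17 being lower in KHR-N+/-, and with the muscle list as a covariate Sprr2e differed by 0.30 (adjusted p = 0.919). The mean level of that list was separate, at 6.98 to 7.49 in KHR-N+/- and 8.03 to 8.74 in KR-N+/-. The covariate fit therefore cannot part the list from the tumour type. With median scaling 18 envelope genes were higher and 0 lower, in a fit that shifted the median of all genes by 0.65 and called 4550 of 9732.

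Of the 40 genes, 26 passed in none of the 7 comparisons, and their group levels are given as the mean and SD over the tumours of the group. Among Lce1 genes, Lce1i and Lce1l spread widely within KHR. Lce1i was 9.79 ± 1.32 there (range 7.44 to 10.50, n = 5), while KR-N-/- lay at 8.92 ± 0.17 (n = 4). Lce1l was 8.36 ± 1.32 in KHR and 7.72 ± 0.21 in KR-N-/-. Lce1b, Lce1c and Lce1d had group means between 11.91 and 12.62, with KR-N-/- lowest for each. Lce1a2 and Lce1f had theirs between 11.36 and 12.13, with KHR-N-/- lowest and KR-N+/- highest for both. Lce1g ran from 8.06 ± 0.38 in KR-N-/- to 8.89 ± 0.49 in KR-N+/-, and Lce1e from 5.66 ± 0.26 in KR-N-/- to 6.78 ± 0.49 in KHR-N+/-.

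The Sprr2 members among the 26 were highest by mean in KHR. Sprr2b was 7.53 ± 1.79 in KHR (range 4.81 to 9.78, n = 5) and 5.10 ± 0.41 in KR-N-/- (n = 4), a wide gap in means beside a spread within KHR that covered both. Sprr2i was 9.91 ± 0.71 in KHR and 8.49 ± 0.86 in KR-N-/-, Sprr2j-ps was 7.49 ± 0.69 and 6.14 ± 0.60, and Sprr2a1 was 6.85 ± 1.11 in KHR and lowest in KR-N+/-, at 6.22 ± 0.40. The Sprr1 genes varied least of the family, with Sprr1a means between 10.80 and 11.13 and Sprr1b means between 13.25 and 13.42.

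No transglutaminase passed in any of the 7 comparisons. Tgm1 ran from 9.85 ± 0.22 in KR-N-/- to 10.43 ± 0.50 in KHR, Tgm5 from 8.25 ± 0.30 in KR-N-/- to 8.79 ± 0.19 in KR-N+/-, and Tgm3 from 6.90 ± 0.38 in KHR-N+/- to 7.49 ± 0.18 in KR-N-/-. Lor means lay between 13.89 and 14.26, Rptn means between 13.91 and 14.27 and Krtdap means between 13.65 and 13.93, all close to the top of the scale. Cdsn means lay between 12.81 and 13.03, Casp14 means between 12.27 and 12.78 and Sbsn means between 10.40 and 11.01. Hrnr was 10.57 ± 0.93 in KHR and 11.16 ± 0.35 in KR-N+/-, and Flg2 ran from 4.78 ± 0.65 in KR-N-/- to 5.62 ± 0.54 in KHR-N-/-.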

How the data were processed

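The deposited scanner table gives, per the file headers, a linear intensity per probe and array, a bead count and a p-value of detection. A normalized intensity table that the authors made served only as an alternative. The submitters' processing notes name GenomeStudio and Partek, with no version, and the 23 columns of bead standard errors were not used. RNA was extracted with Trizol and, as the labels' protocols say, labelled by Ambion MessageAmp.

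Intensities were corrected with normexp by detection p-value (offset 16), put on the log2 scale and quantile-normalized (limma 3.58.1, R 4.3.3, and version 1.17.8 of data.table). A probe entered the tests if detected (detection p-value below 0.05) by 4 arrays or more, and the brightest stood for each gene. One lmFit and eBayes model held the 5 groups and 23 arrays (residual degrees of freedom 18), with p-values adjusted by Benjamini-Hochberg, for 6 comparisons between groups and the interaction. SE is the moderated standard error. On simulated data for KR-N-/- against KR-N+/- over 9732 genes, 93% of changes of 1 on the log2 scale and 100% of changes of 2 were recovered, with 13 false among 206 calls. The simulated noise was drawn for each gene on its own, with no shared array effect and no outlying tumour. These rates therefore check the fit and do not carry over to the real arrays. The number of arrays limits precision.

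Members and lists were chosen with earlier results of these data known. Values in every tumour are given for Sprr3, Lce3a, Cnfn and Sprr2d and for members that passed in any comparison, at most 12 by smallest adjusted p, of 14 that passed; of other lists up to 4 genes are named. Probe genes come from the platform annotation, and all 41 member identifiers matched RefSeq, with 0 symbols changed. The replicate numbers deviated together in all 4 pairs (correlations 0.14 to 0.28) only for KHR-N-/- and KHR-N+/-. Slides are not named in the files, so no slide term was fitted.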

Additional observations from a re-analysis of the deposited data

Results flagged for a closer look

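Sprr2e in KHR-N+/- replicate 1 was at 12.35 on the log2 scale, while the other KHR-N+/- tumours lay between 11.03 and 11.25, a gap of 0.832 of the range of the group. It was the single such sample in 65 sets of tumours, 13 genes in 5 groups, and since chance gives about 1 in 20, a single such sample is no more than chance would give. The single envelope call between KHR-N+/- and KR-N+/- was lost without this tumour.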

How the results depend on the processing

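Of 23 called differences of envelope genes, 3 passed in every one of 14 alternatives (Cnfn, Sprr2d and Sprr2e between KHR-N-/- and KR-N-/-), 11 passed in every fit that left out an array, and 0 changed sign. Counts of envelope genes that passed moved as follows, and the cause was not tested. Where a covariate list was itself separate between the groups compared, its fit cannot part the list from the group. KHR-N-/- against KHR (2) gave 1 with median scaling, 1 with only the groups compared, 18 with array weights, 0 with the muscle, 1 with the basal and 7 with the fibroblast covariate, 16 without both KHR replicate 5 and KHR-N+/- replicate 3, and 2 to 16 with an array left out. In that order 1.69, 3.96, 22.9, 1.8, 0.699, 0.956 and 12.9% of all genes passed, the fits with an array left out aside. KHR-N+/- against KHR (0) gave 4 with array weights (9.16% of all genes), 2 with the fibroblast covariate (1.9%) and 0 to 1 with an array left out, the 1 being Lce1m without KHR-N+/- replicate 4 (0.925%). KHR-N-/- against KHR-N+/- (0) gave 1 with array weights (2.72% of all genes). KR-N-/- against KR-N+/- (11) gave 0 with median scaling, 19 with only the groups compared, 0 with the basal and 0 with the fibroblast covariate, and 7 to 16 with an array left out. Their shares of all genes were 0.0308, 18.6, 0 and 0.175%. The fit with 7 called 11.5% of all genes and the fit with 16, without KHR replicate 5, called 18.9%. KHR-N+/- against KR-N+/- (1) gave 18 with median scaling, 2 with only the groups compared, 2 with array weights, 0 with the muscle, 2 with the basal and 6 with the fibroblast covariate, and 0 to 3 with an array left out (3 without KHR replicate 5, 0 without KHR-N+/- replicate 1, 2 without KR-N+/- replicate 2). All genes passed at 46.8, 5.37, 11.1, 0.123, 7.33 and 7.83%, and at 6.87, 4.16 and 8.15% without each of those arrays. KHR-N-/- against KR-N-/- (9) gave 5 with the muscle (5.69% of all genes) and 5 with the basal covariate (8.75%), and 5 to 10 with an array left out. The interaction gave 0 in all. Median scaling moved the median of all genes to 0.11, 0.29, -0.15, 0.03, 0.65, 0.39 and -0.18 in the order of these comparisons. With the replicate number as a block the counts were 3, 0, 0, 13, 1, 12 and 0. Of all genes, 8.1, 1.4, 0.0719, 20.5, 5.71, 15.9 and 0.0206% passed in the block fit. Only KHR-N-/- and KHR-N+/- deviated together in all pairs. Across groups the mean bead count per probe went with the replicate number. It was 27.0 to 30.5 on replicate 1 arrays and 39.6 to 40.4 on replicate 5 arrays. KHR replicate 5, KHR-N+/- replicate 4 and KHR-N-/- replicate 5 were lowest of their groups on the envelope genes, and KR-N+/- replicate 5 highest. In KR-N-/- replicate 3 was lowest (-0.59, 39.2 beads) and replicate 1 highest (-0.26, 30.4 beads). What the bead count stands for was not tested. No background correction, a normexp offset of 50, the authors' processed values, no detection filter, all kept probes, and trend with robust fitting kept each count within 1.5 times, though single calls were lost among them (Sprr3 and Asprv1 between KHR-N-/- and KR-N-/-, Sprr2d and Sprr2k within KR). A slide term was not run. Bright probes near 14.6 may limit what these arrays resolve, as may dim Flg2.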
